A study of Homo sapiens with 2 samples.

Results

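Mesenchymal transition factors are taken here as 8 genes, namely SNAI1, SNAI2, TWIST1, TWIST2, ZEB1, ZEB2, VIM and AXL, read by every probe set that the platform annotation assigns to them by gene symbol. These were 18 of 54675 probe sets, and 8 of 19775 named genes, and 0 of the 18 were shared with a further symbol. The samples were C4-2B, an established human prostate cancer line that enzalutamide inhibits, and C4-2B-MDVR, a line derived from it by prolonged enzalutamide exposure and resistant to that antiandrogen. Both lines grew in RPMI-1640 with 10% fetal bovine serum and received no drug before RNA was taken, so the comparison is between the lines and not between drug and vehicle. Per line there was 1 Affymetrix array, so no spread between replicates exists and no p-value or SE is given for any gene. The free-text description of each sample names docetaxel instead of enzalutamide, and that of the resistant sample names another line, TaxR. Groups follow the cell line label, and each difference is the library labelled C4-2B-MDVR minus the library labelled C4-2B on the log2 scale.

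Epithelial to mesenchymal transition is the programme by which cells with tight and adherens junctions loosen them, change their cytoskeleton and become motile. SNAI1 (Snail), SNAI2 (Slug), ZEB1 and ZEB2 are zinc finger repressors that bind E-box sequences in promoters of epithelial genes such as CDH1, and TWIST1 and TWIST2 are basic helix-loop-helix factors of the same programme. VIM encodes vimentin, the intermediate filament of mesenchymal cells, and AXL a receptor tyrosine kinase that is often high in mesenchymal, drug-resistant carcinoma cells. Prostate luminal cells normally carry keratin filaments and junctions and little vimentin.

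The members did not differ in one direction. SNAI2 was far lower in C4-2B-MDVR and VIM somewhat lower, SNAI1 was slightly higher, AXL was nearly equal, and TWIST1, TWIST2, ZEB1 and ZEB2 gave no signal above the floor in either line. The floor was the median of each array (intensity 41.9 in C4-2B, 43.5 in C4-2B-MDVR), and a gene counted as above it when its brighter array was. By this rule 4 of the 8 genes and 4 of the 18 probe sets were above the floor. Of these 4 genes, 1 (SNAI2, which reached the floor only in C4-2B) was lower and 0 were higher by 2-fold or more in measured value. Over all 13437 genes above the floor the same held for 3.5% on the lower side and 3.17% on the higher side. The median difference of the 4 members was −0.36, against 0.04 over all genes above the floor.

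**Figure D1:**
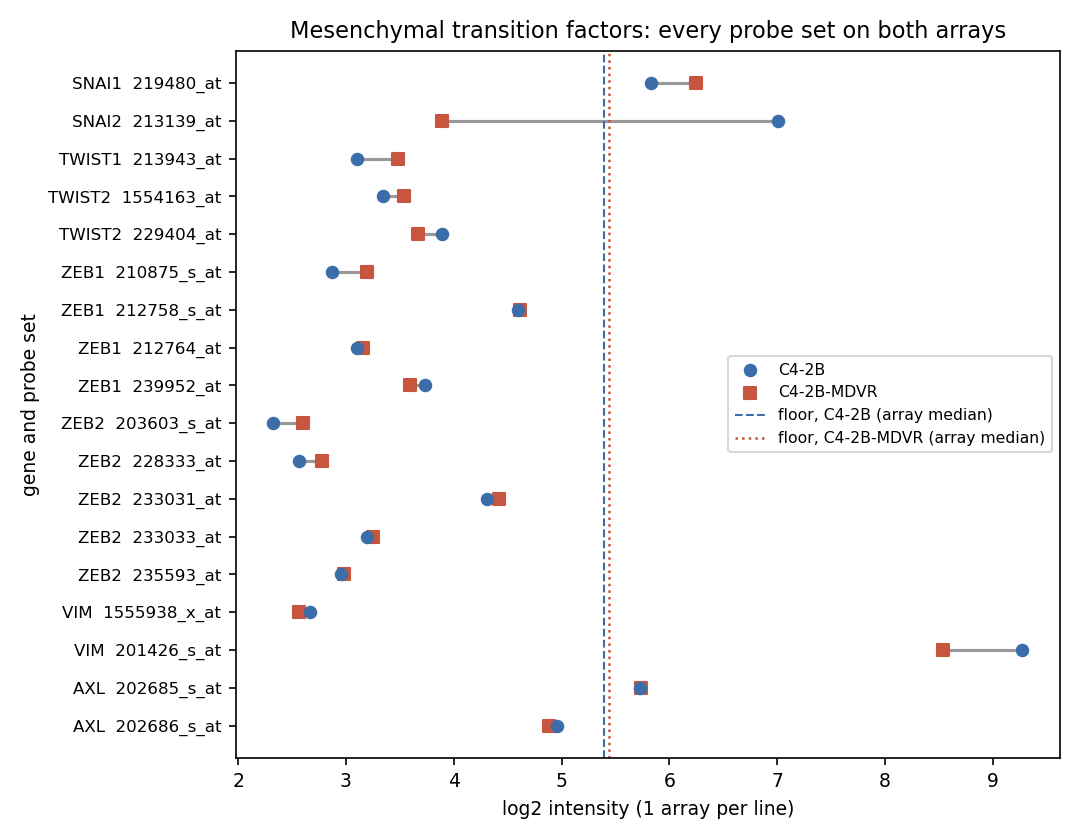
Log2 intensity (horizontal) of each of the 18 probe sets (rows) on the C4-2B array (circles) and the C4-2B-MDVR array (squares), with the array medians used as floors (vertical lines). The SNAI2 probe set goes from 7.01 to 3.89 across the floor, VIM from 9.27 to 8.54 above it, and all 12 TWIST and ZEB probe sets lie left of it.

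SNAI2, the Slug repressor, had the largest difference of the 8. Its single probe set, 213139_at, read 129 in C4-2B against 14.8 in C4-2B-MDVR. The C4-2B value was above the floor and the C4-2B-MDVR value under it, so the measured 8.70-fold difference (log2 −3.12) is open at its lower end, and against the floor the gene was at least 2.97-fold lower. Large differences are common where 1 array is under the floor. Of the 2626 probe sets above the floor on 1 array, 22.5% differed by 2-fold or more either way. For those above it on both arrays the share was 4.96%. The middle 95% of differences in the class above the floor on 1 array lay between −2.37 and 2.48. Only 1 probe set reads SNAI2, so no second reading exists. In RNA from a whole culture, fewer cells with a transcript and less of it per cell cannot be told apart. The 6 nearest named genes above the floor on chromosome 8, 3 on each side, differed by −0.44 to 0.42 and 0 of them by 2-fold or more. The nearest on either side, UBE2V2, a ubiquitin-conjugating enzyme variant, and PCMTD1, were at −0.44 and 0.42.

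SNAI1, the founding Snail repressor, was slightly higher in the resistant line. Its probe set, 219480_at, read 56.9 in C4-2B against 75.8 in C4-2B-MDVR, a 1.33-fold difference (log2 0.41). Both values were above the floor but near it, and 85.7% of genes above the floor had a lower or equal difference. The measured difference was thus slightly above 0 for SNAI1 and far below it for SNAI2. Among probe sets above the floor on both arrays the middle 95% of differences lay between −1.09 and 0.87, which holds the SNAI1 value. Its 6 neighbouring genes above the floor, which include CEBPB, a basic leucine zipper factor, and RNF114 on either side, differed by −0.26 to 0.03.

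VIM was lower in C4-2B-MDVR but still well above the floor. Probe set 201426_s_at read 618 in C4-2B against 372 in C4-2B-MDVR, a 1.66-fold difference (log2 −0.73), short of 2-fold. Of genes above the floor 6.25% had a difference as low or lower. The value lay inside the middle 95% of differences, −1.09 to 0.87, of probe sets above the floor on both arrays. The other VIM probe set, 1555938_x_at, read 6.36 and 5.92, under the floor on both arrays, and so gives no second reading. The 6 genes above the floor that neighbour VIM on chromosome 10 differed by −1.05 to 0.14, 1 of them by 2-fold or more. TRDMT1, an RNA methyltransferase gene and the nearest on one side, was at −1.05 and PTER at −0.76, with RSU1 between them at −0.06. On the other side ST8SIA6-AS1, the nearest, was at 0.12, STAM at −0.33 and CACNB2 at 0.14. Some genes beside VIM were thus lower and others nearly equal or slightly higher, and a shared cause was not tested.

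AXL, the receptor tyrosine kinase, was nearly equal in the lines. Probe set 202685_s_at read 52.9 in C4-2B against 53.3 in C4-2B-MDVR (log2 difference 0.011), and 202686_s_at, which was under the floor on both arrays, read 31.1 and 29.4 (−0.08). Both values of the first lay close above the floor, so a level much lower in either line could not have been followed. The 6 neighbouring genes above the floor differed by −0.22 to 0.72.

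The TWIST and ZEB genes were under the floor in both lines. Their 12 probe sets read between 5.02 and 24.4 on the 2 arrays, all under the floor. The TWIST1 probe set, 213943_at, read 8.57 in C4-2B against 11.2 in C4-2B-MDVR. The TWIST2 probe sets read 10.1 and 11.6 (1554163_at) and 14.8 and 12.7 (229404_at), so they differed in opposite directions. Of the 4 ZEB1 probe sets the brightest, 212758_s_at, read 24.2 in C4-2B against 24.4 in C4-2B-MDVR, and the others read between 7.33 and 13.3. Of the 5 ZEB2 probe sets the brightest, 233031_at, read 19.8 and 21.3, and the others between 5.02 and 9.52. Differences of the 12 ranged from −0.22 to 0.38, with 10 above 0 and 2 below. Among the 26024 probe sets under the floor on both arrays the middle 95% of differences lay between −0.49 and 0.53, and all 12 were inside that range. A value under the floor gives only an upper limit, so these data place TWIST1, TWIST2, ZEB1 and ZEB2 below detection in both lines by this floor and do not order the lines.

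**Figure D2:**
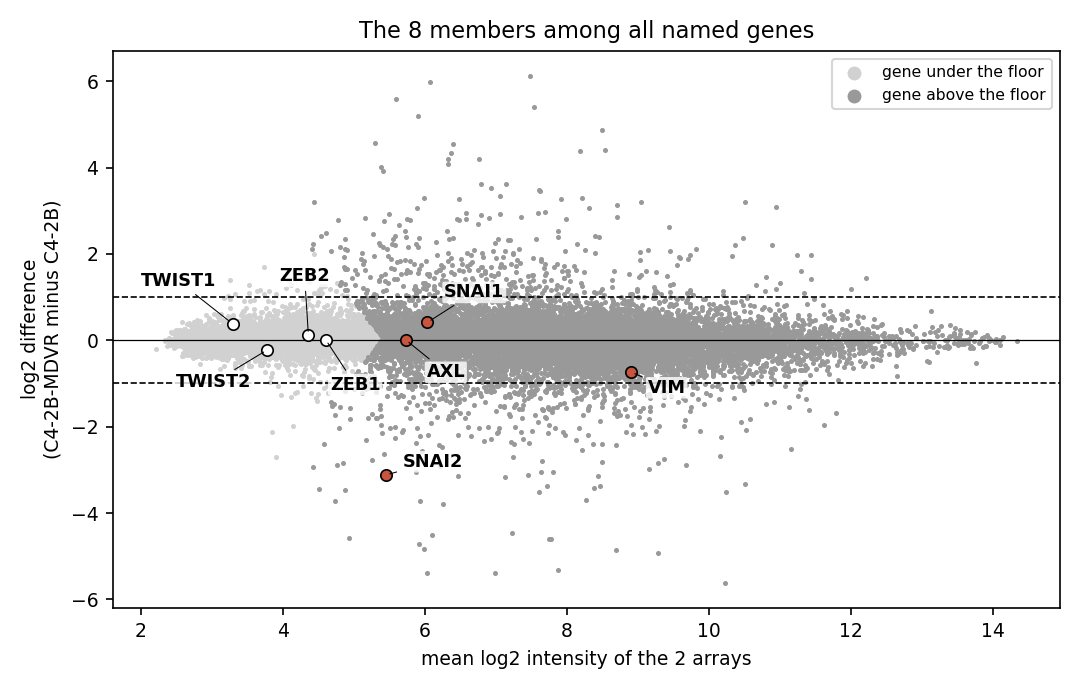
Log2 difference (C4-2B-MDVR minus C4-2B, vertical) against mean log2 intensity of the 2 arrays (horizontal) for all named genes, 1 point per gene, with the 8 members labelled (filled when above the floor, open when under it) and dashed lines at 2-fold. SNAI2 lies at −3.12, apart from the other 7 members, which lie between −0.73 and 0.41.

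Further transition factors, a list of 14 genes of which 12 were named on the array, included 8 above the floor. SOX9, a high mobility group factor of progenitor and cartilage cells, and FOXQ1, a forkhead factor, were past 2-fold on the higher side, with 0 on the lower side. Of all genes above the floor 3.17% were past 2-fold on the higher side and 3.5% on the lower side. SOX9 read 34.0 in C4-2B, under the floor, and 233 in C4-2B-MDVR (log2 2.77, at least 5.56-fold), and its other probe set, under the floor in C4-2B too, was at least 2.23-fold higher. FOXQ1 read 26.6, also under the floor, and 138 (2.37, at least 3.29-fold). Both genes reached the floor on 1 array only, a class in which 22.5% of probe sets differed by 2-fold or more either way. The list median was 0.28. SNAI3, the third Snail gene, was under the floor at 12.5 and 13.5, as were FOXC2, PRRX1 and KLF8. SOX4 (0.19) and TEAD4 (0.0079) were nearest to 0. RUNX2, an osteoblast factor, was at 0.32 by the probe set with the highest mean log2 value, 221282_x_at. Its probe set 232231_at read 159 in C4-2B against 21.9, under the floor, in C4-2B-MDVR, at least 3.65-fold lower, so its direction depends on the probe set. RUNX2 was singled out after its values were seen.

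Partners and corepressors were within 2-fold, all 23 of the 25 listed genes that were named, with a median of 0.16. Among all genes above the floor 3.17% were higher and 3.5% lower by 2-fold or more. TCF3, TCF4 and TCF12 encode the E proteins that pair with TWIST factors, and had log2 differences of 0.18, −0.77 and 0.27 by the probe sets that stood for them, with TCF3 probe sets above the floor from −0.82 to 0.18. The ID proteins bind E proteins and keep them off DNA. ID1 read 1156 in C4-2B against 2044 in C4-2B-MDVR (0.82), ID2 302 and 532 (0.82, with 0.27 for its other probe set) and ID3 867 and 1402 (0.69), so 3 of the 4 ID genes were higher by less than 2-fold, and ID4 was at −0.10. These values were singled out after they were seen. The corepressor gene CTBP1 was at 0.09, its relative CTBP2 at −0.43, the demethylase KDM1A, which SNAI1 recruits, at 0.34, and HDAC1 at 0.36. LATS2, a kinase of the Hippo pathway that phosphorylates SNAI1, read 278 in C4-2B against 139 in C4-2B-MDVR. Its difference of −0.998 lay just inside 2-fold, and 2 further LATS2 probe sets gave −0.50 and 0.14.

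Epithelial genes, the class that SNAI and ZEB factors repress, were all above the floor in both lines, 31 of 31 named of 32 listed. Past 2-fold, 2 were higher and 0 lower, against shares of 3.17% and 3.5% over all genes above the floor. In total, 20 were above 0 and 11 below, with a median of 0.05 against 0.04 over all genes above the floor. OCLN, the tight junction protein occludin, read 570.1 in C4-2B against 1280.1 in C4-2B-MDVR (1.17), and its 4 probe sets differed by 1.12 to 1.26. ELF3, an epithelial ETS factor, read 136 and 452 (1.73), but its other probe sets were at 0.60 and 0.61, so the size of its difference depends on the probe set. CDH1, which encodes E-cadherin, read 3197 and 2579.8 (−0.31), with −0.47 for its other probe set. DSP, the desmosomal plaque protein desmoplakin, was the lowest at −0.81. KRT19 was at −0.62, and TJP1, a scaffold of tight junctions, at −0.53. ESRP1, an epithelial splicing regulator, was at 0.39, with −0.03 for its other probe set. OVOL1 (0.0039) and PKP3 (0.02) were nearest to 0. DSP, KRT19 and TJP1 were thus lower by less than 2-fold, and the E-cadherin signal differed less than these. Other genes were higher by less than 2-fold, among them SPINT1 (0.71), LLGL2 (0.50) and MARVELD3 (0.43). The genes named here on either side within 2-fold, apart from CDH1, were singled out after their values were seen.

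The E-box form that SNAI and ZEB factors bind, CAGGTG on one strand and CACCTG on the other, was searched in promoter windows from RefSeq (GRCh38.p14), each 300 bases from 250 before to 50 after a start site. Either spelling is also a match to the general E-box CANNTG, which other helix-loop-helix factors bind. No window was given for CDH1, so its promoter was not searched. Windows were given for 17 of the 32 epithelial genes, and 13 of these 17 genes (76.5%) had the motif in at least 1 window, against 24.1% of all 27305 genes with a window. For mesenchymal genes it was 2 of 25 (8.0%), and for the members 2 of the 5 with a window, ZEB1 and AXL. SNAI1, SNAI2 and TWIST1 had no window. The 13 epithelial genes with the motif differed by −0.81 to 1.73 with a median of 0.10, 8 above 0 and 5 below. The 4 without the motif differed by −0.04 to 0.32 with a median of 0.18. Of these, 3 were above 0 and 1, GRHL1, was close to 0 at −0.04. A group of 4 genes is too small for a comparison with the 13. A match is a description of the letters and not a bound site, and binding was not measured.

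Shown are the promoters of OCLN and ELF3, the 2 epithelial genes past 2-fold, of CRB3, a polarity gene that had 5 matches and a difference of 0.10 (chosen after its values were seen), and of VIM, a member with 0 matches. They are written 5′ to 3′ on the strand of the gene with the motif in capitals. The OCLN window is the second of 2 overlapping ones, and the first holds 1 match, 33 bases before its start site. In the ELF3 window the match begins 120 bases before the start site, and in CRB3 the matches begin 228, 208, 147, 89 and 60 bases before it.
OCLN, chr5:69492540-69492839, plus strand: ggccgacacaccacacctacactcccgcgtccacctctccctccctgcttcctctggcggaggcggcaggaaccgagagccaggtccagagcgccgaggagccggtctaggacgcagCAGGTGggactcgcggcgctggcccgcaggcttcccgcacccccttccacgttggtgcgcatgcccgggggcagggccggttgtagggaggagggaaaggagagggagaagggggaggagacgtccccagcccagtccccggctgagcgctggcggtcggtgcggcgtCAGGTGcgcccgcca
ELF3, chr1:202010337-202010636, plus strand: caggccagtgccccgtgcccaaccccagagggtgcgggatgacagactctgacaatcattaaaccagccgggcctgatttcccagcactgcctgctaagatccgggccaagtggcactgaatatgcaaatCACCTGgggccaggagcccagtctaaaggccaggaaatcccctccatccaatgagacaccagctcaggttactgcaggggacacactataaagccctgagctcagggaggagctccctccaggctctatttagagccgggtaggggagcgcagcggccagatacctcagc
CRB3, chr19:6464021-6464320, plus strand: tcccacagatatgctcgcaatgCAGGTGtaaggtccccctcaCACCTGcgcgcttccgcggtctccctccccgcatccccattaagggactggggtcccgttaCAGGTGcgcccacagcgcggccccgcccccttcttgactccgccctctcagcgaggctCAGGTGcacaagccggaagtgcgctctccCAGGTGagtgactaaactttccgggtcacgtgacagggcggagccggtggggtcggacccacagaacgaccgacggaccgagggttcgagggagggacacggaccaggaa
VIM, chr10:17227991-17228290, plus strand: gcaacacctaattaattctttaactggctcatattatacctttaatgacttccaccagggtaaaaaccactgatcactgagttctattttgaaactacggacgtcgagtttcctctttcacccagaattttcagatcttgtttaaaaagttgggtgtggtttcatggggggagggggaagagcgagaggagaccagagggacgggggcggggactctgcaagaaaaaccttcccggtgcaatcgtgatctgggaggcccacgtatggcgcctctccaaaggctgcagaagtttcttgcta

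Mesenchymal genes, the class that is usually high after the transition, were often under the floor. Of 36 listed genes 35 were named and 17 reached the floor, with 1 higher and 0 lower past 2-fold and a median of 0.02. The shares past 2-fold over all genes above the floor were 3.17% higher and 3.5% lower. FN1, which encodes fibronectin, read 1227 in C4-2B against 4793 in C4-2B-MDVR (1.97), and its 5 probe sets above the floor differed by 1.17 to 2.06. FN1 was thus higher, while the member VIM, another marker of the class, was lower by less than 2-fold. CDH2, N-cadherin, was at 0.30 with 52.9 and 65.3, near the floor. FSCN1, an actin-bundling protein of protrusions, was at 0.90 but by bound only at least 1.41-fold higher, since it was under the floor in C4-2B. COL1A1, a fibrillar collagen gene, was at −0.23 by 217430_x_at (255 and 217), but 1556499_s_at read 55.4 in C4-2B against 116 in C4-2B-MDVR (2.09-fold) and 202310_s_at read 45.7 against 105 (2.29-fold), so its direction depends on the probe set. By the median of probe sets, or without _x_at probe sets, 2 mesenchymal genes in place of 1 were past 2-fold on the higher side. COL1A1 was singled out after its values were seen. TAGLN (−0.0042) and ACTA2 (0.0092), both smooth muscle genes, were nearest to 0. SPARC, MMP2, COL3A1, CDH11, POSTN and CD44 were among the 18 under the floor on both arrays.

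Other intermediate filament genes lay on both sides of 0. Of 14 genes 11 reached the floor, with 1 higher and 0 lower past 2-fold and a median of 0.24. Among all genes above the floor 3.17% were higher and 3.5% lower by 2-fold or more. NES, nestin of neural progenitors, which assembles together with vimentin, read 147 in C4-2B against 782 in C4-2B-MDVR (2.41, 5.33-fold), while its other probe set, 229346_at, was under the floor at 20.6 and 24.7. The nuclear lamins went both ways, with LMNA at 0.83, LMNB1 at −0.76 and LMNB2 at −0.49, all within 2-fold. NEFM (0.07) and DES (−0.08) were nearest to 0.

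The AXL axis, the ligands, relatives and signalling partners of the receptor, showed mostly small positive differences. Of 12 genes 11 reached the floor, 10 of them with a difference above 0, with 1 higher and 0 lower past 2-fold and a median of 0.27. Over all genes above the floor the median was 0.04, and 3.17% were 2-fold or more higher. Of all these genes 46.3% had a difference at or below the 0.011 of AXL. Median centring lowered the list median to 0.22. GAS6, the main AXL ligand, was at 0.14 and the related receptors TYRO3 and MERTK at 0.17 and 0.68. PROS1, the ligand of TYRO3 and MERTK, was under the floor. PIK3R1, the regulatory subunit of phosphoinositide 3-kinase, read 120.2 in C4-2B against 271 in C4-2B-MDVR (1.17), with 0.83 for its other probe set above the floor. CBL (−0.08) and NCK2 (0.13) were nearest to 0.

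Inducing signals of the transition included genes past 2-fold in both directions. Of 27 genes 24 reached the floor, with 5 higher and 1 lower past 2-fold, 12 above 0, 12 below and a median of 0.0035. The shares past 2-fold over all genes above the floor were 3.17% higher and 3.5% lower. WNT5A, a noncanonical Wnt ligand, read 45.1 in C4-2B against 321 in C4-2B-MDVR (2.83), and LIF, a cytokine of the interleukin-6 family, 41.9, at the floor, and 130.3 (1.64). EPAS1, a hypoxia-inducible factor, read 47.5 and 143 (1.59), with 2 further probe sets under the floor, and SMAD3, a transducer of TGF-beta signals, 52.0 and 120.2 (1.21). EGF was lower, at 82.7 and 21.1 (−1.97), by bound at least 1.90-fold. HGF, the scatter factor that activates MET, read 57.9 and 156 (1.43) by the probe set with the highest mean log2 value, 209961_s_at, although others were brighter in C4-2B-MDVR.

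HGF was higher by all 5 of its probe sets, and the one that stood for it gave the smallest difference. Probe set 210997_at read 5.91 in C4-2B against 569.9 in C4-2B-MDVR (6.59), at least 13.6-fold against the floor. The other 3 were at least 2.02-fold to 6.51-fold higher against the floor, and all 4 were under it in C4-2B. MET, its receptor, was at 0.67, with 77.3 and 123, while its other probe sets above the floor gave 0.18 and 0.19. TGFBR2, the type II TGF-beta receptor, was under the floor on both arrays at 25.7 and 25.1, and TGFBR1 was at −0.95. SMAD2 (0.013) and FGFR1 (−0.0063) were nearest to 0, though SMAD2 probe sets above the floor reached −1.01.

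**Figure D3:**
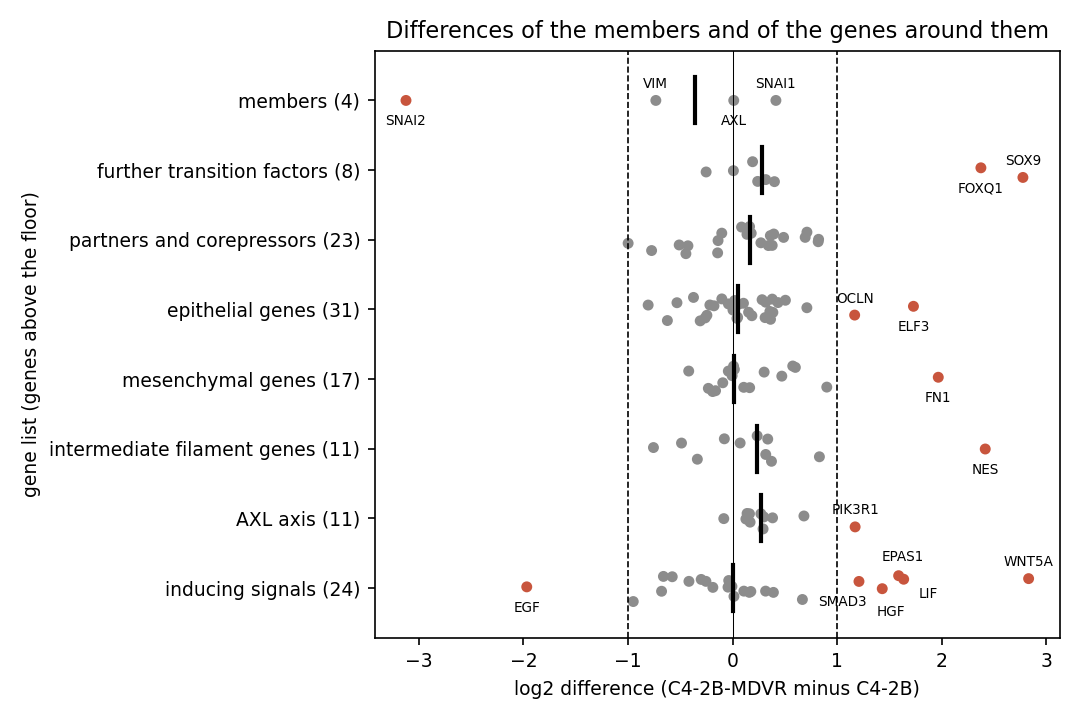
Log2 difference (C4-2B-MDVR minus C4-2B, horizontal) of each gene above the floor in the members and in 7 gene lists (rows, number of genes in brackets). Vertical bars are medians, dashed lines mark 2-fold, and genes past 2-fold and the members are named. SNAI2 and EGF are the genes left of the line at −1.

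**Figure D4:**
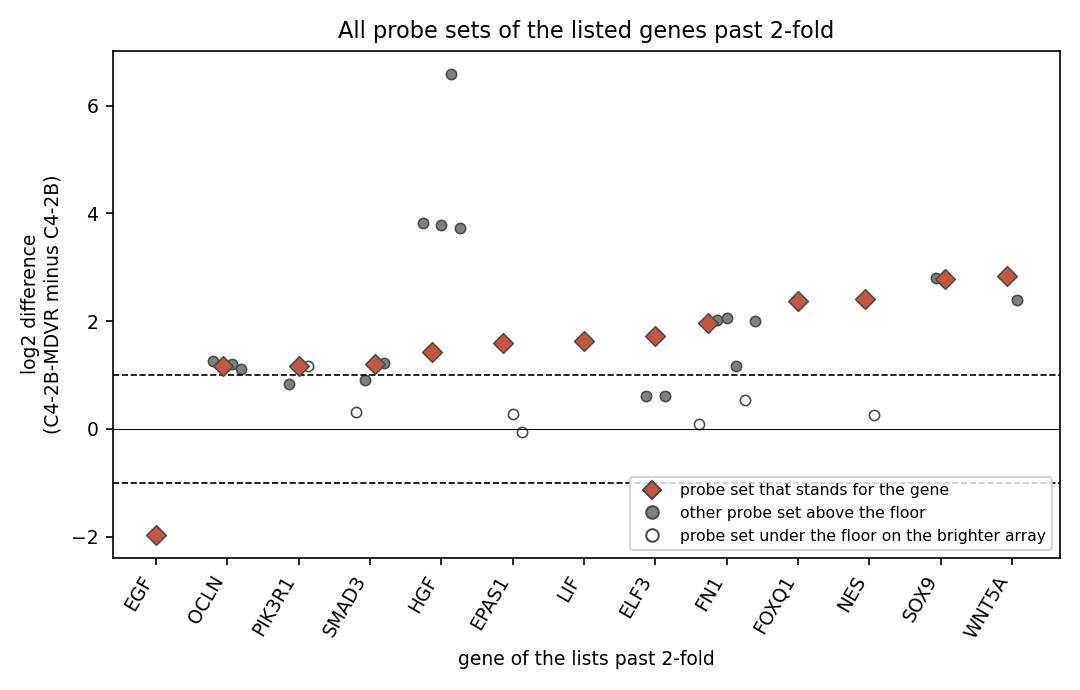
Log2 difference (vertical) of every probe set of the 13 listed genes past 2-fold (horizontal), with diamonds for the probe set that stands for the gene, filled circles for others above the floor and open circles for those under it. HGF spans 1.43 to 6.59, while the OCLN probe sets lie between 1.12 and 1.26.

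Of 5 listed antisense genes, 4 at member loci and SNAI3-AS1, 2 were named. ZEB1-AS1, transcribed divergently beside ZEB1, read 97.9 in C4-2B against 77.2 in C4-2B-MDVR (−0.34), above the floor on both arrays although ZEB1 was not. SNAI3-AS1, at the locus of SNAI3, which is no member, was under the floor.

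The markers of the labelled cell type and of other cells were checked in the same arrays. All 7 prostate luminal markers were above the floor in both lines, including FOXA1 (−0.08), HOXB13 (0.05), KRT8 (0.32) and KRT18 (−0.10), while KLK3 (−5.61) and KLK2 (−2.10) were lower. The KLK3 probe sets spanned −6.24 to −0.35, those of FOXA1 reached −1.18, and those of HOXB13 reached 0.68. Of 9 fibroblast markers 4 were above the floor, and COL1A2, COL3A1 and LUM were under it. All 9 together, those under the floor included, summed to an intensity of 523 in C4-2B against 479 in C4-2B-MDVR, with COL1A1 counted by 217430_x_at, the one of its 3 probe sets above the floor that was lower. Endothelial markers, 2 of 6 above the floor, summed over all 6 to 199 and 215, and blood markers, 2 of 5 above it, over all 5 to 187 and 201, with PTPRC under the floor. Their part in the differences of VIM and FN1 was not tested.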

How the data were processed

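Each of 2 cell lines was measured on 1 array of 54675 probe sets. The authors deposited 1 intensity per probe set and array. The range of the values shows a linear scale. How they corrected background, normalized and summarized probes is not given in the sources used here. Per the labels' protocols, total RNA was extracted with Trizol, amplified with a whole-transcript kit, fragmented and biotin-labelled. The probe sets are those of a 3′ expression array, and how that pairing affects probe sets of one gene could not be checked. Differences were taken between log2 values with no further normalization.

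Probe sets were named by a platform annotation of 2016, which gave 1 symbol to 41097, several to 1801 and none to 11777. Those with several were left out of gene values. The probe set with the highest mean log2 value stood for a gene. A gene was 2-fold or more higher or lower at a log2 difference of at least 1 in size with the brighter array at or above its median. Where the dimmer value was under its floor, a bound was taken from the brighter value to that floor. Depth is not defined for arrays, and their number limits the precision.

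Members and lists were chosen with earlier results of these data known. Named genes were all members, list genes past 2-fold, the 2 nearest to 0 per list and a fixed set, and any gene named outside that rule was picked with its value in view. Listed genes without a named probe set were not analysed here. The steps were tested on simulated data. Alternatives covered scaling, probe set choice, floor, threshold and probe sets with several symbols. Python 3.11.15, numpy 2.4.6, pandas 2.3.3, statsmodels 0.14.6 and matplotlib 3.10.9 were used.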

Additional observations from a re-analysis of the deposited data

How the results depend on the processing

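Across 13 alternatives the SNAI2 difference stayed negative, from −3.20 to −1.57, the last with C4-2B-MDVR raised to the floor. Its single probe set could be moved only by the 3 scalings and by that raising. The remaining settings could not change its value, so they say nothing about its stability. The count of members 2-fold or more lower was 1 in 11 of the 13 alternatives. It was 0 with the floor at the 75th percentile, where SNAI2 was left out by construction, and 2 at a threshold of 1.5-fold, which VIM passed. At 1.5-fold 9.32% of all genes above the floor were lower, against 3.5% at 2-fold. The count of members 2-fold or more higher was 0 under all 13. VIM ranged from −0.79 to −0.42, and SNAI1 from 0.34 to 0.41. SNAI1 too is read by 1 probe set, so only the scalings could move its value. AXL changed sign in 4 alternatives and ranged from −0.07 to 0.01, so no direction is given for it. Median centring moved the median difference of genes above the floor from 0.04 to −0.01. In the lists, 182 of 208 counts equalled the main count or stayed within 1.5 times of it. Counts of 0 that stayed 0 are included, among them all those of the antisense genes, so the tally says little for lists with few genes past 2-fold. When a gene's probe sets were averaged, or their median difference taken, 1 epithelial gene in place of 2 was 2-fold or more higher. When they were averaged 3 inducing signals in place of 5 were, and with the floor at the 75th percentile 2 were, HGF and WNT5A, while SOX9 alone of the further factors passed. EGF was no longer past 2-fold when low values were raised to the floor or with the floor at the 75th percentile, where the count of lower inducing signals was 0. LATS2 passed 2-fold with median centring (−1.05) and loess (−1.01), TGFBR1 with median centring, and without the _x_at probe sets, and by the median of a gene's probe sets, RUNX2 was lower and COL1A1 higher (1.07), the latter making 2 mesenchymal genes higher in place of 1. When probe sets with several symbols were counted, BMI1, a listed partner otherwise left out, was past 2-fold on the lower side (−1.16). With 1 array per line no result could be tested, and signal near the floor limits what the TWIST, ZEB and AXL probe sets can show. No paired analysis was possible because each line has 1 array.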
